A study of Mus musculus with 12 samples.

Results

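The regions described here are the ATAC-seq peaks that were more open with DFMO than with vehicle in both T cell lineages of the study. A peak was a member where its mean with DFMO was 5 CPM or more in Th17n and in iTreg cells, and where the vehicle mean divided by the DFMO mean was 0.6 or less in both. CPM is the count of a peak divided by the total of its library and scaled by 1000000. The rule found 586 of 48443 peaks, 1.21% of all and 2.10% of the 27978 peaks that met the level in both lineages. Within those 27978 peaks the ratio passed in 2215 peaks in Th17n cells and in 1786 peaks in iTreg cells. The same rule turned round, with vehicle as the higher side, found 807 peaks, called closing peaks below. The DFMO and vehicle values chose the members, so their sizes are given as a description with no test.

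The cells were naive CD4+ T cells sorted from the spleens of C57BL/6 mice, which the labels mark as WT (wild type) in all groups, and stimulated on plates with antibodies to CD3 and CD28 (1 µg/ml each) for 68 hours. IL-6 (25 ng/ml) and TGF-beta1 (2 ng/ml) were added to obtain non-pathogenic Th17 cells, Th17n, and TGF-beta1 alone (2 ng/ml) to obtain induced regulatory T cells, iTreg. The groups were Th17n with 100 µM DFMO, Th17n with vehicle, iTreg with 100 µM DFMO and iTreg with vehicle, each with cells of animals 1, 2 and 3, which gave 12 libraries. The numbers come from the sample titles, and each is read here as 1 animal. All cells were cultured, sorted for being alive and frozen before tagmentation, and no sort for a lineage marker after culture is given, so a culture can hold cells of other kinds. Neither age nor sex of the animals is given by the labels.

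DFMO (difluoromethylornithine) blocks ornithine decarboxylase, the enzyme that makes putrescine, from which cells build the polyamines spermidine and spermine. Polyamines are small positively charged molecules that bind nucleic acids and are needed for T cell growth, and spermidine supplies the hypusine residue of the translation factor eIF5A. ATAC-seq uses the Tn5 transposase, which inserts adapters where DNA is not packed in nucleosomes, so more reads over a region mean a more open region. In bulk libraries, more cells open at a region and a more open region in each cell cannot be told apart. Open regions of T cells comprise promoters, enhancers, which lie inside or between genes, and short genes transcribed by RNA polymerase III, such as tRNA genes, whose promoter lies inside the transcribed part.

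Total counts per library were 1020937 to 6496550, so that 5 CPM stood for 5.11 counts in the shallowest library and 32.5 counts in the deepest. Peaks near the genes of the Th17 marker list summed to 1137 to 1305 CPM in Th17n with DFMO and 1381 to 1503 CPM in Th17n with vehicle. In iTreg cells they summed to 612 to 754 CPM with DFMO and 790 to 992 CPM with vehicle, below every Th17n library. The Treg marker list did not part the lineages: it summed to 1076 to 1141 CPM in Th17n against 1098 to 1279 CPM in iTreg with DFMO, and to 1341 to 1425 CPM in Th17n against 1361 to 1433 CPM in iTreg with vehicle. Of the T cell list, 5 of 6 genes had a peak and Trac had none, and its sum was 377 to 403 and 462 to 473 CPM in Th17n with DFMO and vehicle, and 326 to 403 and 354 to 363 CPM in iTreg with DFMO and vehicle. Of markers of other cells, the B cell genes Cd79a, Cd79b and Ms4a1 and the cytotoxic and NK genes Cd8a and Ncr1 had no peak. The B cell list summed to 261 to 277 CPM in Th17n with DFMO, 239 to 274 CPM in Th17n with vehicle, 144 to 172 CPM in iTreg with DFMO and 140 to 202 CPM in iTreg with vehicle. The cytotoxic and NK list summed to 200.5 to 233 and 204 to 257 CPM in Th17n with DFMO and vehicle, and to 288 to 336 and 275 to 304 CPM in iTreg with DFMO and vehicle. The myeloid list, all 7 genes of which had a peak, lay between 327 and 389 CPM in every library. Their part in the results was not tested.

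The sequences that bear on the members are of 2 kinds, promoter windows that lie under member peaks and small RNA genes inside them. Promoter windows run from 250 bases before to 50 bases after a gene's start and come from RefSeq, build GRCm38.p6, which is the mm10 build of the deposited peaks. Member peaks covered at least 150 bases of 23 windows, 10 at protein-coding genes and 13 at long noncoding RNA genes. The 4 windows below are those in which the letters TGTGGTT lie in the part that the member peak covers, chosen after the motif counts were seen. Capitals mark TGTGGTT, the core that RUNX factors bind, and AGATAA, the core that GATA factors bind, each on either strand, so that they can read AACCACA or TTATCT. All the capitals lie under the peak, which covered 171 bases of the Ceacam2 window, 299 of Tnip3, 248 of Gm13982 and 269 of Gm33332. Each window is printed 5′ to 3′ on the strand of its gene.
Ceacam2 (chr7:25539955-25540254, minus strand): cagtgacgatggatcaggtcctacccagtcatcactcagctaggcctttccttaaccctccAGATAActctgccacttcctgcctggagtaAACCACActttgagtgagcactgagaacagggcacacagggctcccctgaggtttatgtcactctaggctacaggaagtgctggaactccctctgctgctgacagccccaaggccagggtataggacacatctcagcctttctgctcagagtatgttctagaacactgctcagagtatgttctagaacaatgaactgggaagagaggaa
Tnip3 (chr6:65590148-65590447, plus strand): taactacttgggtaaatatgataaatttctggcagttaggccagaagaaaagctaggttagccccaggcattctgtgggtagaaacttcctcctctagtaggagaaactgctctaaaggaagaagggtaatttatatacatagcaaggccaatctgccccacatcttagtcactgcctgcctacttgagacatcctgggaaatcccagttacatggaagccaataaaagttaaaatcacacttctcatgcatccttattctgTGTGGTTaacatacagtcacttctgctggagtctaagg
Gm13982 (chr2:117417648-117417947, minus strand): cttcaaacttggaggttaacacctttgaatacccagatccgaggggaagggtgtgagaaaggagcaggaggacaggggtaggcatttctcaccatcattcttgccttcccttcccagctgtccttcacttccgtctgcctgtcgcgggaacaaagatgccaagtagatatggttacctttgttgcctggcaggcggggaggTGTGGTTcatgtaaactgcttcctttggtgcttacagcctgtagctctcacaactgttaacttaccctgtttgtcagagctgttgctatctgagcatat
Gm33332 (chr10:19718758-19719057, minus strand): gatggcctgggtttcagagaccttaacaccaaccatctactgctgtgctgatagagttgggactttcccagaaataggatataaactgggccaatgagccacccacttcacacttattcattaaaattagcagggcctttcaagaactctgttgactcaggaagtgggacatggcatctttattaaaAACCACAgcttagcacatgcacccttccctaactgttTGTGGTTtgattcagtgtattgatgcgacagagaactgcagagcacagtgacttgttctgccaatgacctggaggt

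The Ceacam2 window held both cores, and the Gm33332 window held the RUNX core at 2 places. Ceacam2 encodes an adhesion molecule, and Tnip3 encodes a protein that inhibits NF-kB signalling. Gm13982 and Gm33332 are long noncoding RNA genes. Counted over whole windows, RUNX letters were found in 7 of 23 windows under members (30.4%), against 3.55% of 11153 windows under other peaks of at least 5 CPM with DFMO in both lineages and 5.27% of all 32817 windows. Counted under the peak alone, they were found in 4 of 23 (17.4%), against 3.35% of the windows under those other peaks. GATA letters were found in 6 of 23 (26.1%), against 4.71% of the windows under those other peaks and 11.2% of all windows, and all 6 had them under the peak, against 4.21%. TCF/LEF letters (CTTTGAA) were in 4 of 23 (17.4%), against 3.08% and 5.14%. KLF/SP letters (GGGCGGG) went the other way, with 3 of 23 windows (13.04%) against 52.3% under other peaks and 25.6% of all. In all, 21 motifs were searched on both strands, and RUNX and GATA letters can share their end bases. The median window under members had 53% GC and 7 CpG, near the 52.7% and 7 of all windows, while those under other peaks had 63% and 23. A match of letters is no evidence that a factor binds.

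Among the small RNA genes, 22 members overlapped a tRNA gene and 2 overlapped a microRNA gene, Mir1983 and Mir1955. The Mir1983 hairpin is shown because it and an isoleucine tRNA gene share their bases: n-TItat14 (chromosome 13, 21896938 to 21897031) lies wholly within the hairpin. Capitals in the hairpin mark the letters GTTCGANNC (written with U), a core of the B box at which RNA polymerase III factors bind tRNA genes, and in the mature microRNAs they mark the seed, bases 2 to 8. Of 1005 mouse hairpins in the RefSeq table, 5 (0.498%) held those B box letters on either strand. The seeds of miR-1983 and miR-1955-5p differ.
Mir1983 hairpin (chr13:21896918-21897049, minus strand): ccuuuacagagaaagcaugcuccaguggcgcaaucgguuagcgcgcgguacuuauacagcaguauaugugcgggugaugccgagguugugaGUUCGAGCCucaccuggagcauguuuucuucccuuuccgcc
mmu-miR-1983, mature (chr13:21896930-21896950, minus strand): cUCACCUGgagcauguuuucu
mmu-miR-1955-5p, mature (chr2:92191994-92192018, plus strand): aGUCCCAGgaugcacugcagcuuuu

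Members were peaks of low to moderate openness, and the typical ratio of DFMO to vehicle was alike in size in both lineages. Their median was 11.2 CPM with DFMO and 4.67 CPM with vehicle in Th17n cells, and 13.2 CPM with DFMO and 5.42 CPM with vehicle in iTreg cells. The ratio of means had a median of 2.26 in Th17n (1.67 to 17.3) and 2.17 in iTreg cells (1.67 to 10.5). It was 2 or more in both lineages in 248 members and 3 or more in both in 32. Over all peaks the medians were 0.990 and 0.987. Member counts made up 0.890% ± 0.0364 of a library in Th17n with DFMO and 0.379% ± 0.0249 in Th17n with vehicle, and 1.02% ± 0.0228 in iTreg with DFMO and 0.459% ± 0.0449 in iTreg with vehicle (SD, n = 3 each).

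All 3 DFMO libraries lay above all 3 vehicle libraries in 455 members in Th17n cells, in 421 in iTreg cells and in 335 in both, against 13.1%, 10.2% and 2.78% of all peaks. DFMO exceeded vehicle in all 3 animals and both lineages in 470 members, against 6.02% of all peaks. The edgeR quasi-likelihood test of DFMO against vehicle called 305 members higher in Th17n cells (4.5% of all tested peaks were called higher), 326 in iTreg cells (3.84% of all) and 200 in both (0.796% of all). The rule used this contrast, so nothing is read from these shares. A vehicle library had 0 counts in 58 members, and no DFMO library did. The highest group was iTreg with DFMO in 363 members and Th17n with DFMO in 223. The lowest was Th17n with vehicle in 371 and iTreg with vehicle in 215.

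**Figure D1:**
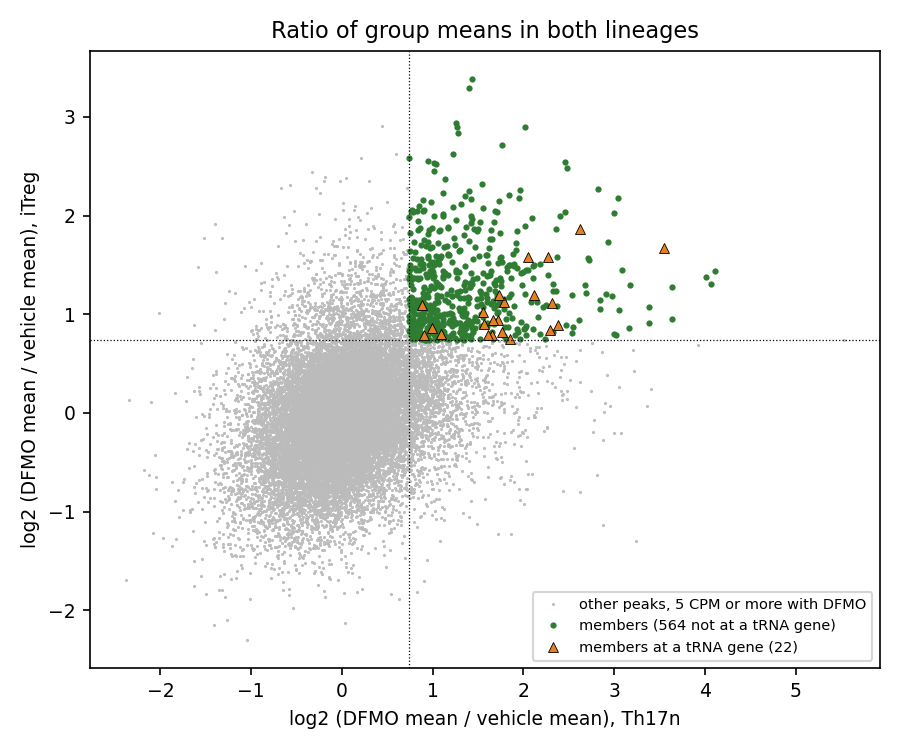
Each point is a peak of at least 5 CPM with DFMO in both lineages, placed by the log2 ratio of its DFMO mean to its vehicle mean in Th17n cells (x axis) and in iTreg cells (y axis), with dotted lines at the ratio that the rule asks for (1.67). The 586 members fill the upper right corner by construction, and the 22 members at a tRNA gene (triangles) lie mostly further along the Th17n axis (median ratio 3.35) than along the iTreg axis (median ratio 1.92).

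Because the ratio chose the members, the rule was also run on 2 animals at a time and read in the animal left out. Without animal 1 the rule chose 746 peaks, and 64.5% of them had more CPM with DFMO than with vehicle in both lineages of animal 1, against 27.2% of all peaks that met the level. Without animal 2 it chose 602 peaks, of which 78.6% were higher in both lineages of animal 2, against 31.3%. Without animal 3 it chose 626, of which 74.9% were higher in both, against 29.6%. For the log2 ratios of this paragraph 1 CPM was added to each value, which makes them smaller in size than without it. In the animal left out, the chosen peaks had a median log2 ratio of 0.92 in Th17n and 0.60 in iTreg cells for animal 1, 0.77 and 0.82 for animal 2, and 0.77 and 0.78 for animal 3. In the animals used for the choice these medians were 0.99 to 1.06, so the ratios shrank in animals the rule had not seen. The full ratio rule passed again in 27.5%, 39.9% and 33.4% of the chosen peaks for animals 1, 2 and 3, against 2.63%, 2.96% and 2.44% of all. The vehicle library of Th17n cells from animal 1 was the shallowest of the 12.

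**Figure D2:**
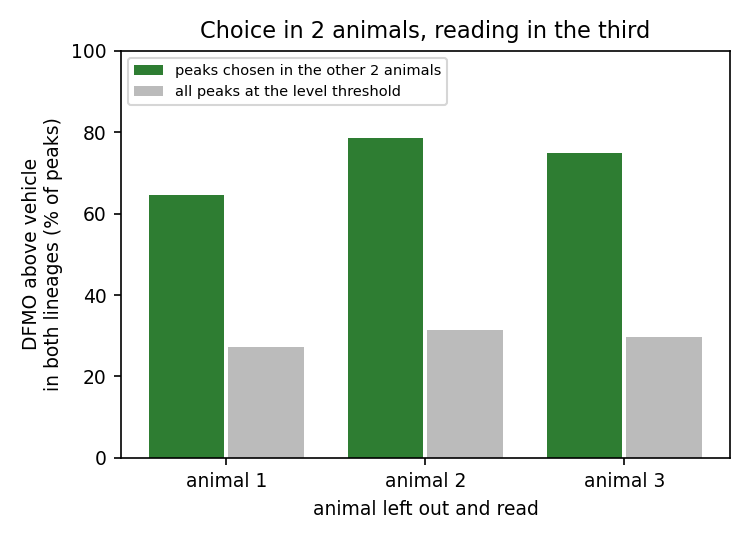
Bars give the percentage of peaks with more CPM with DFMO than with vehicle in both lineages of 1 animal, for peaks chosen by the rule in the other 2 animals (green) and for all peaks that met the level there (grey). The green bars stand at 64.5%, 78.6% and 74.9%, and the grey bars at 27.2%, 31.3% and 29.6%.

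Member peaks lay away from gene ends and were narrow. At a gene end, meaning within 1 kb of either end of the nearest protein-coding gene model, were 49 members, 8.36% (exact 95% interval 6.25% to 10.9%, counting error only). Of the other 27392 peaks of at least 5 CPM with DFMO in both lineages 38.2% were there, of closing peaks 13.1% and of all peaks 25.0%. Within 1 kb of a start site were 7.51% of members, 36.3% of those other peaks and 12.9% of closing peaks. A distance to a start site was at hand for 562 members, 26641 other peaks and 787 closing peaks. Peaks without one were counted as not near a start site. Start sites of single genes can be missing too, since for the member inside Oplah the nearest one lay 670200 bp away. These shares can thus be too low. Inside a gene model lay 257 members (43.9%) and outside one lay 209 (35.7%). The remaining 71 members (12.1%) had no protein-coding gene within 100 kb, against 3.17% of the other peaks and 4.21% of closing peaks. The nearest gene model of any type was a long noncoding RNA gene for 42 of these and a pseudogene for 17. The median width was 413.5 bp in members, 693 bp in the other peaks and 504 bp in closing peaks.

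The difference in place held at each level of openness. Of peaks with a mean DFMO level of 5 to 10 CPM, 3.53% were members, of those at 10 to 20 CPM 3.25%, at 20 to 50 CPM 1.28% and at 50 CPM or more 0.293%. Gene ends held 10.7% of members and 17.2% of other peaks at 5 to 10 CPM, 7.09% and 20.8% at 10 to 20 CPM, 7.83% and 44.4% at 20 to 50 CPM, and 6.25% (1 of 16) and 73.5% at 50 CPM or more. Median widths were 316 bp in members and 415 bp in other peaks at the lowest level, and 819 bp and 1137 bp at the highest.

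**Figure D3:**
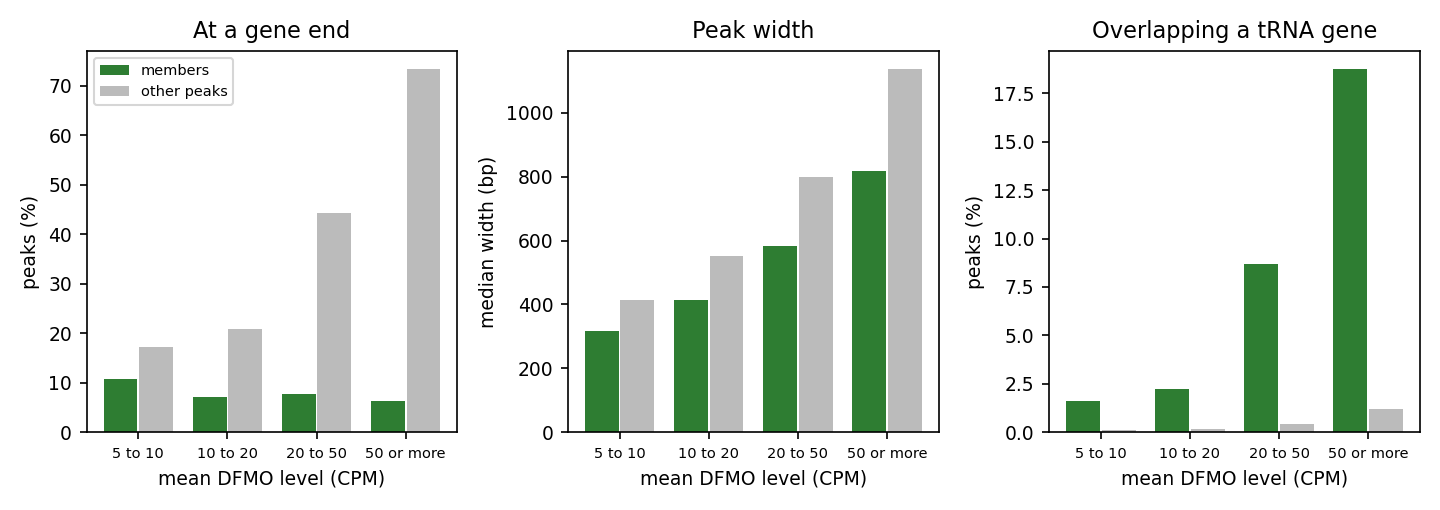
Bars compare members (green) with other peaks (grey) in 4 bins of the mean DFMO level in CPM, for the percentage at a gene end, the median width in bp and the percentage that overlap a tRNA gene. Members are less often at a gene end and narrower in every bin, and more often at a tRNA gene, up to 3 of 16 members (18.8%) in the highest bin.

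The members were spread over the genome. Of 2058 windows of 1 Mb with a peak, 466 held a member and 5 held 4 or more. Chromosome 13 held 43 members (7.34%), against 4.31% of the other peaks. The 515 members with a gene within 100 kb were nearest to 480 genes, of which 449 had 1 member, 28 had 2 and 3 had more. Gm52481 on the Y chromosome had 4, and H4bc24 and Tox2 had 3 each. The 3 nearest to H4bc24 overlapped tRNA genes and lay 17.6 to 45.1 kb from it. Among the genes with 2 members, named after their values were seen, were Mef2c, which encodes a transcription factor, Kcna3, which encodes a potassium channel of T cells, Ldlrad4, which encodes an inhibitor of TGF-beta signalling, and Ctsc, which encodes cathepsin C. Being nearest says nothing of whether a region acts on that gene.

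One group of members lay at tRNA genes. tRNA genes lay at 22 members (3.75%), at 123 of the other 27392 peaks of at least 5 CPM (0.449%), and at 0 of 807 closing peaks. The 22 members covered 27 tRNA genes of 13 amino acids, from alanine and isoleucine to valine and tyrosine, and none lay at a protein-coding gene end. Of these, 15 lay on chromosome 13 between 21233777 and 23504032, a stretch of 2.27 Mb with 81 peaks, 37 of them at tRNA genes, and the other 7 lay on other chromosomes. Near-identical copies of tRNA genes share reads, and the labels do not say how the authors' counting split them. No member lay at an snRNA or snoRNA gene.

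The peak at the tyrosine tRNA gene n-TYgta5 (chromosome 13, 23426864 to 23427151) had 30.2, 22.5 and 36.5 CPM in Th17n with DFMO, against 3.92, 5.23 and 5.29 CPM in Th17n with vehicle, for animals 1, 2 and 3. In iTreg cells it had 26.4, 46.0 and 25.2 CPM with DFMO, against 10.2, 11.2 and 5.46 CPM with vehicle. In neither lineage did the DFMO and vehicle libraries overlap, and the ratios of means were 6.18 and 3.64. The peak of n-TItat14 and Mir1983 (chromosome 13, 21896723 to 21897117), whose sequence is printed above, had 15.3, 14.3 and 22.1 CPM in Th17n with DFMO, against 0.980, 1.39 and 2.06 CPM with vehicle. iTreg cells had 15.3, 17.6 and 10.6 CPM with DFMO, against 4.09, 4.08 and 5.46 CPM with vehicle. Its ratio was 11.7 in Th17n cells and 3.18 in iTreg cells, and the Th17n vehicle libraries were the lowest of all 12. On chromosome 11 the peak of the glycine tRNA gene n-TGacc1 (48823724 to 48824061) had 23.4, 21.2 and 25.4 CPM in Th17n with DFMO, against 1.96, 4.31 and 8.22 CPM with vehicle. The iTreg libraries had 34.6, 36.1 and 35.5 CPM with DFMO, against 14.8, 12.5 and 8.09 CPM with vehicle. These groups did not overlap either.

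Over the 22 members at tRNA genes, the median was 23.3 CPM in Th17n with DFMO, 6.01 CPM in Th17n with vehicle, 23.7 CPM in iTreg with DFMO and 10.5 CPM in iTreg with vehicle. The DFMO libraries lay above the vehicle libraries without overlap in 21 of 22 in Th17n and in 16 of 22 in iTreg cells, against 13.1% and 10.2% of all peaks; the rule used these values, so nothing is read from the counts. The smallest ratio was 1.84 in Th17n and 1.68 in iTreg cells. The 124 tRNA peaks that were no members were wider (median 920 bp, against 521 bp in the members) and had median ratios of 1.52 and 1.197. Of these 124 peaks 96 had a ratio above 1 in both lineages, against 28.3% of all peaks. With the 22 members, which pass by the rule, it was 118 of 146. Leaving out the iTreg DFMO library of animal 2 when choosing members left 14 at tRNA genes, and leaving out any other single library left 20 to 26.

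The ratio in the rule did not use the lineage contrast, which could be tested. The level in the rule does bear on it, since a peak must reach 5 CPM with DFMO in both lineages, so the other peaks of that level are the comparison for the members. It compared Th17n with iTreg cells, averaged over DFMO and vehicle, with edgeR's quasi-likelihood test and Benjamini-Hochberg adjustment over the 43726 peaks that passed the filter on low counts. All 586 members passed that filter, and 4717 other peaks did not. Of the members, 95 (16.2%) were higher in Th17n (30% of all tested peaks were called so), 205 (35.0%) were higher in iTreg (25.7% of all) and 286 did not pass. Of the other peaks of at least 5 CPM with DFMO in both lineages, 16.6% and 33.1% were called in the same directions, so the shares of calls in members were near those of peaks at that level. Closing peaks went the other way, with 42.9% higher in Th17n and 10.4% higher in iTreg.

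The sizes differed more than the calls. The log2 difference, Th17n minus iTreg, had a median of -0.36 in members and -0.21 in the other peaks. It was -1 or less in 120 members (20.5%), against 3.75% of other peaks, and 1 or more in 57 members (9.73%), against 7.96%. For differences of -1 or less the shares were 12.8% of members and 3.66% of other peaks at 5 to 10 CPM, 23.9% and 6.55% at 10 to 20 CPM, and 25.2% and 3.10% at 20 to 50 CPM. Members have lower vehicle levels than other peaks of the same DFMO level, by the rule. In DFMO libraries alone 62 members (10.6%) were called higher in Th17n and 132 (22.5%) higher in iTreg. Of the other peaks of at least 5 CPM 12.5% and 18.3% were called so, and of all tested peaks 22.5% and 14.7%. In vehicle libraries alone 73 members (12.5%) and 156 (26.6%) were called. The shares there were 13.3% and 24.9% of those other peaks, and 25.2% and 19.3% of all tested peaks. The same call was made in both treatments for 48 members higher in Th17n and 101 higher in iTreg, and opposite calls for 0. In percent these were 8.19% and 17.2% of members, against 8.46% and 10.9% of the other peaks of that level and 17.5% and 8.95% of all tested peaks.

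**Figure D4:**
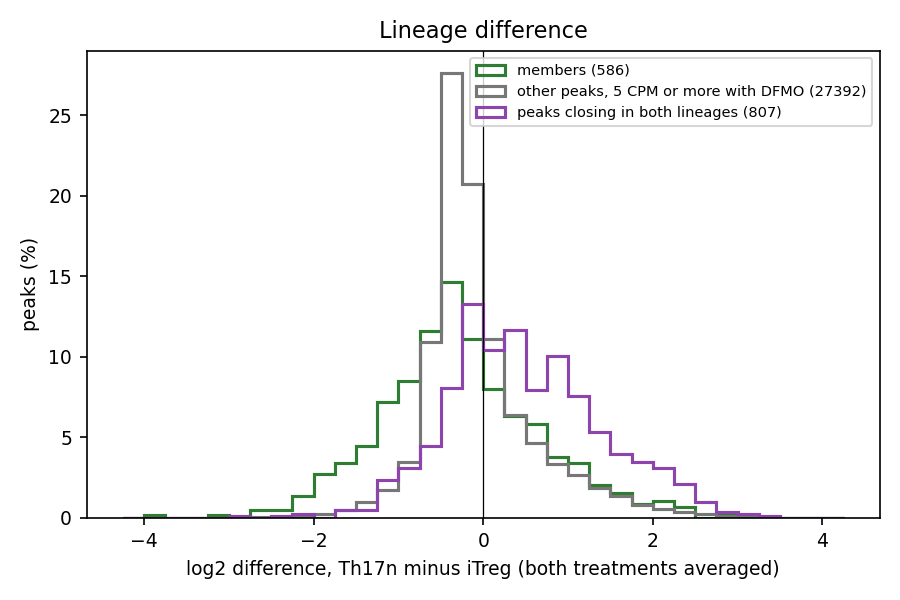
Outlines give the percentage of peaks by log2 difference in accessibility, Th17n minus iTreg, averaged over both treatments, for 586 members (green), 27392 other peaks of at least 5 CPM with DFMO in both lineages (grey) and 807 closing peaks (purple). Members reach further to the iTreg side, with 20.5% at -1 or less against 3.75% of other peaks, and closing peaks lie to the Th17n side.

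Members higher in Th17n lay at genes of varied function. A peak inside Usp45, which encodes a deubiquitinating enzyme (chromosome 4, 21781515 to 21782886), had 47.4, 32.5 and 44.3 CPM in Th17n with DFMO and 31.3, 19.1 and 22.9 CPM in Th17n with vehicle. Among iTreg libraries the values were 7.63, 3.796 and 6.74 CPM with DFMO and 3.58, 1.94 and 2.63 CPM with vehicle. Every Th17n library lay above every iTreg library, a log2 difference of 2.90 ± 0.23 (SE; adjusted p = 8.4e-15). A peak inside Srl, which encodes the muscle calcium-binding protein sarcalumenin (chromosome 16, 4503501 to 4504085), had 56.2, 69.2 and 59.2 CPM in Th17n with DFMO and 23.5, 28.2 and 23.2 CPM with vehicle. The values in iTreg were 11.2, 17.1 and 13.2 CPM with DFMO and 3.58, 6.88 and 7.08 CPM with vehicle (2.01 ± 0.18, adjusted p = 2.3e-13). Here too the lineages did not overlap. A further Srl member (4512748 to 4513239) differed in the opposite direction (-1.55 ± 0.30, adjusted p = 1.7e-05). The other named members higher in Th17n were near Tmeff1, which encodes a transmembrane protein (2.28), and Dhrs4, which encodes a dehydrogenase (2.43), inside Spire1, which encodes an actin nucleator (2.17), inside Fto, which encodes an RNA demethylase (2.31), inside Snx8, which encodes a sorting nexin (1.79), and near A530021J07Rik (2.07).

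Among members higher in iTreg, the smallest adjusted p was at Abi3. The peak inside Abi3, which encodes an actin regulator (chromosome 11, 95833401 to 95834693), had 37.4, 35.5 and 35.2 CPM in Th17n with DFMO and 17.6, 25.9 and 18.8 CPM in Th17n with vehicle. In iTreg cells it had 107, 124 and 95.8 CPM with DFMO and 61.4, 58.5 and 59.2 CPM with vehicle. All iTreg libraries lay above all Th17n libraries (-1.58 ± 0.12, adjusted p = 7.7e-16). A peak on chromosome 3 (60819700 to 60820530), 182 kb from the nearest protein-coding gene, had 4.22, 8.65 and 13.7 CPM in Th17n with DFMO and 0, 0.770 and 0.881 CPM with vehicle. iTreg cells had 75.1, 31.3 and 70.6 CPM with DFMO and 41.4, 12.5 and 14.3 CPM with vehicle, a log2 difference of -3.87 ± 0.32 (adjusted p = 2.7e-14). Th17n with DFMO reached 13.7 CPM there, above the lowest vehicle library of iTreg cells. The others were inside Gna12, which encodes a G protein subunit (-2.50), inside Tbl1xr1, which encodes a corepressor subunit (-3.01), near Akap7 and inside Akap13, which encode anchors of protein kinase A (-2.09 and -2.49), near the scaffold gene Grasp (-1.80), and over the start of Fermt1, which encodes the integrin activator kindlin-1 (-1.96). The Fermt1 peak covered 272 bases of its promoter window and 300 of the window of the long noncoding RNA gene Gm14102.

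At tRNA genes all 22 members had a log2 difference below 0, with a median of -0.44, and 11 were called higher in iTreg (50%). Of the other peaks of at least 5 CPM 66.5% were below 0 and 33.1% were called higher in iTreg, and of all tested peaks 53.3% and 25.7%. The median difference was -0.11 in DFMO libraries, with 2 calls, and -0.81 in vehicle libraries, with 11 calls. The 124 tRNA peaks that were no members also had lower medians in Th17n than in iTreg cells. These were 47.5 against 55.5 CPM with DFMO and 32.1 against 45.6 CPM with vehicle, so the direction was not particular to the members. The count of 11 fell to 6 without the Th17n DFMO library of animal 1, the iTreg DFMO library of animal 2 or the iTreg vehicle library of animal 2. It fell to 7 without the Th17n DFMO library of animal 2 or the Th17n vehicle library of animal 3, and to 2 after thinning all libraries to the smallest. The n-TGacc1 peak differed by -0.91 ± 0.21 (adjusted p = 0.00032). The tRNA peak of n-TAagc11 and n-TVaac6 (chromosome 13, 23298718 to 23299335) differed by -1.06 ± 0.24 (adjusted p = 0.00016, and 0.0983 after thinning).

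The members with the largest smaller ratio, that is the lower of the ratios in both lineages, were 192 to 807 bp wide. At an end of Cryl1 (chromosome 14, 57273810 to 57274234) accessibility was 18.2, 9.52 and 11.7 CPM in Th17n with DFMO, against 0, 3.23 and 3.82 CPM in Th17n with vehicle. The iTreg libraries had 8.80, 2.85 and 4.10 CPM with DFMO, against 0.511, 1.29 and 1.01 CPM with vehicle. Its ratios were 5.59 and 5.603, and no DFMO library overlapped a vehicle library of its lineage. Inside Adgrg3, which encodes an adhesion G protein-coupled receptor (chromosome 8, 95037160 to 95037597), it was 6.82, 7.36 and 7.81 CPM in Th17n with DFMO, against 0, 0.770 and 3.23 CPM with vehicle. Among iTreg libraries the values were 27.0, 22.8 and 23.7 CPM with DFMO, against 3.58, 6.02 and 3.03 CPM with vehicle. Its ratios were 5.50 and 5.82, and the level was higher in iTreg (-1.68 ± 0.32, adjusted p = 1.6e-05). Inside Stx5a, which encodes the Golgi SNARE protein syntaxin 5 (chromosome 19, 8747550 to 8748357), it was 33.1, 40.7 and 27.4 CPM in Th17n with DFMO, against 9.79, 7.85 and 7.34 CPM with vehicle. The values in iTreg were 17.6, 25.6 and 14.7 CPM with DFMO, against 3.58, 2.15 and 2.02 CPM with vehicle. Its ratios were 4.05 and 7.47, and the level was higher in Th17n (1.21 ± 0.24, adjusted p = 2.8e-05).

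The other members of that kind had smaller ratios of 3.71 to 4.81. They lay inside Nsf, which encodes the ATPase that takes SNARE complexes apart, Gm7244, Jazf1, which encodes a zinc finger protein, Mkx, which encodes a homeobox factor, Gm11541, Mroh3 and Abcb11, which encodes the bile salt pump of the liver, and near the cadherin gene Fat2 and Ube2e3, which encodes a ubiquitin-conjugating enzyme. At Nsf 2 of 3 Th17n vehicle libraries were at 0, with 6.93 ± 2.46 CPM with DFMO and 0.980 ± 1.70 CPM with vehicle in Th17n cells (SD, n = 3). At Jazf1 the iTreg vehicle libraries were uneven, at 9.21, 0.860 and 1.01 CPM, against 18.2, 9.96 and 17.0 CPM in iTreg with DFMO.

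The most open members differed in how evenly their libraries lay. At a gene end of the ribosomal protein gene Rpl3 (chromosome 15, 80075748 to 80077225) accessibility was 119, 89.1 and 87.2 CPM in Th17n with DFMO, against 35.3, 33.1 and 29.7 CPM in Th17n with vehicle. In iTreg cells it was 86.3, 113 and 63.9 CPM with DFMO, against 43.0, 36.1 and 35.2 CPM with vehicle. It was the 1 member of at least 50 CPM at a gene end, its ratios were 3.02 and 2.31, and the lineages did not pass as different (-0.08 ± 0.12, adjusted p = 0.61). The Rpl3 peak lay 14110 bp from the nearest start site at hand. Near Kif16b, which encodes a kinesin (chromosome 2, 142612118 to 142612744), it was 79.9, 106 and 104 CPM in Th17n with DFMO, against 40.2, 47.3 and 47.3 CPM with vehicle. iTreg cells had 34.0, 48.4 and 39.3 CPM with DFMO, against 12.8, 24.9 and 30.7 CPM with vehicle. The Kif16b peak was higher in Th17n (1.01 ± 0.14, adjusted p = 1.6e-08), and the peak inside Kcnip2, which encodes a partner of potassium channels, was higher in iTreg (-1.21 ± 0.14, adjusted p = 8.2e-10). At Kcnip2 the iTreg libraries overlapped, with 117, 62.1 and 99.6 CPM with DFMO and 64.4, 40.4 and 42.9 CPM with vehicle. Inside Impact, which encodes an inhibitor of the amino acid sensor GCN2 (chromosome 18), it was 53.8 ± 3.51 CPM in Th17n with DFMO and 31.2 ± 4.13 CPM with vehicle, and 71.4 ± 3.64 CPM in iTreg with DFMO and 37.7 ± 7.58 CPM with vehicle (SD, n = 3).

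The widest of all 48443 peaks was a member with uneven libraries. It lay on chromosome 14 (19415730 to 19419643, 3913 bp), 114 kb from a protein-coding gene, and had 51.3, 91.7 and 162 CPM in Th17n with DFMO, against 50.9, 39.1 and 48.8 CPM in Th17n with vehicle. The iTreg libraries had 191, 52.2 and 59.2 CPM with DFMO, against 43.0, 41.1 and 52.97 CPM with vehicle. Animal 3 was highest in Th17n with DFMO and animal 1 in iTreg with DFMO, and in iTreg cells the lowest DFMO library fell below the highest vehicle library. The peak inside Aida (chromosome 1, 183299181 to 183299558) was highest in the same libraries, with 28.6, 69.7 and 96.4 CPM in Th17n with DFMO, against 24.5, 14.3 and 25.6 CPM with vehicle. Among iTreg libraries the values were 132, 60.7 and 34.3 CPM with DFMO, against 29.1, 19.8 and 37.4 CPM with vehicle. Of 3 members on unplaced contigs, the one on GL456392 (21859 to 23384) had 16.9, 22.1 and 43.6 CPM in Th17n with DFMO and 19.6, 8.93 and 9.69 CPM with vehicle, and 69.8, 23.2 and 18.5 CPM in iTreg with DFMO and 10.2, 13.3 and 19.0 CPM with vehicle. No list of regions known for high signal was applied here.

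On the Y chromosome 4 of 9 peaks were members, all nearest to Gm52481. The labels do not say how reads that also map to another chromosome, such as the X, were counted. Whether these reads came from the Y chromosome was not tested. The widest of them (90811952 to 90812990) had 26.6, 15.1 and 13.7 CPM in Th17n with DFMO, against 4.90, 5.54 and 3.82 CPM in Th17n with vehicle. The values in iTreg were 23.5, 21.4 and 15.8 CPM with DFMO, against 13.8, 14.0 and 8.29 CPM with vehicle. Neither lineage's groups overlapped at this peak, and the ratios were 3.89 and 1.68. Of the other 3, those at 90800477 and 90803333 overlapped in iTreg cells, where the lowest DFMO libraries had 7.33 and 13.8 CPM and the highest vehicle libraries 9.89 and 14.8 CPM.

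**Figure D5:**
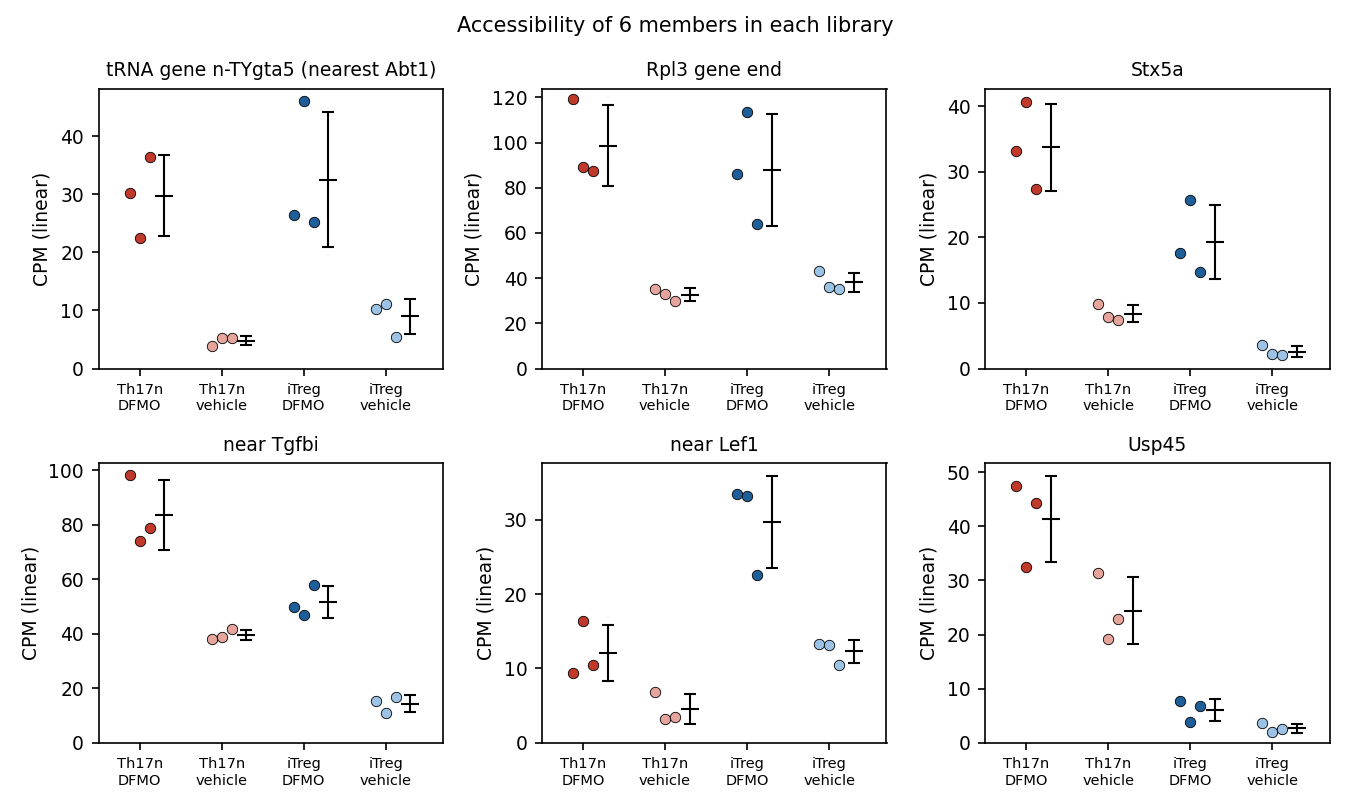
CPM (linear axes from 0) of 6 members in each library: dots are the animals 1, 2 and 3 from left to right, and the bar beside them is the mean with its SD (n = 3). In all 6 the DFMO dots lie above the vehicle dots of the same lineage, while the lineage that is higher differs, with Usp45 higher in Th17n and the Lef1 peak higher in iTreg.

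The lists of genes covered T cell programmes, signalling, metabolism, ribosomal proteins and markers of other cells. Of 308 genes on 19 lists, 285 had a peak nearest to them. Among 1116 such peaks of at least 5 CPM with DFMO in both lineages 18 were members (1.61%), near the 2.10% of all peaks at that level, at 16 genes of 12 lists, and 70 peaks of the lists were closing peaks. Closing peaks also lay at Rora, Smad3, Irf1 and Hk2, which had a member. The lists of Treg, Th2, polyamine, ATF4 stress, cell cycle, cytotoxic and myeloid genes had no member. In the fit across all tested peaks, DFMO against vehicle, 4.5% were called higher and 4.28% lower in Th17n, and 3.84% higher and 4.72% lower in iTreg cells. Of 68 tested polyamine peaks 3 were higher and 2 lower in Th17n, and 1 and 2 in iTreg cells. Of 138 Treg peaks 7 were higher and 20 lower in Th17n, and 3 and 25 in iTreg cells.

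The list of Tfh and exhaustion genes had 4 members among 63 peaks of that level. Of its 98 tested peaks 6 were higher and 4 lower in Th17n, and 5 and 5 in iTreg cells. Tox2, which encodes an HMG-box factor of exhausted and follicular helper T cells, had 3 of them. The first (chromosome 2, 163164477 to 163165050) had 23.1, 22.5 and 14.98 CPM in Th17n with DFMO, against 12.7, 7.24 and 10.9 CPM in Th17n with vehicle, and 15.8, 20.9 and 21.1 CPM in iTreg with DFMO, against 9.72, 12.04 and 9.10 CPM in iTreg with vehicle. Its groups did not overlap, and neither did those of the peak inside Tox2 (163229004 to 163229333), which was higher in iTreg (-0.86 ± 0.29, adjusted p = 0.012). The fourth lay inside Pdcd1, which encodes the inhibitory receptor PD-1. It had 9.31 ± 3.90 CPM in Th17n with DFMO and 5.05 ± 1.18 CPM with vehicle, and 14.0 ± 2.43 CPM in iTreg with DFMO and 4.89 ± 0.517 CPM with vehicle (SD, n = 3). The Th17n groups overlapped there.

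Of naive and memory genes, with 272 tested peaks of which 4 were higher and 22 lower in Th17n and 4 and 23 in iTreg cells, 2 had a member. Near Lef1, which encodes a factor of naive T cells (chromosome 3, 131014129 to 131014672), accessibility was 9.42, 16.4 and 10.4 CPM in Th17n with DFMO, against 6.86, 3.23 and 3.52 CPM in Th17n with vehicle. In iTreg cells it was 33.5, 33.2 and 22.6 CPM with DFMO, against 13.3, 13.1 and 10.5 CPM with vehicle. The peak, 95.6 kb from Lef1, was higher in iTreg (-1.53 ± 0.23, adjusted p = 2.8e-07). The other lay inside Foxp1, which encodes a factor that keeps T cells quiescent, with ratios of 2.12 and 1.79. At the Foxp1 peak the iTreg groups overlapped. Of 187 tested activation peaks 10 were higher and 16 lower in Th17n, and 2 and 21 in iTreg cells, and the member lay inside Nr4a3, which encodes a nuclear receptor induced by T cell receptor signals. It had 19.5, 16.9 and 17.6 CPM in Th17n with DFMO, against 13.7, 6.31 and 7.93 CPM in Th17n with vehicle, and 35.8, 26.6 and 24.9 CPM in iTreg with DFMO, against 18.9, 14.0 and 17.2 CPM in iTreg with vehicle. It was higher in iTreg (-0.91 ± 0.20, adjusted p = 0.00016).

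Of 149 tested peaks of the TGF-beta and STAT list 8 were higher and 13 lower in Th17n, and 9 and 10 in iTreg cells. A peak near Tgfbi, which encodes a matrix protein induced by TGF-beta (chromosome 13, 56601202 to 56601973), had 98.1, 74.0 and 78.8 CPM in Th17n with DFMO, against 38.2, 38.8 and 41.7 CPM in Th17n with vehicle. iTreg cells had 49.9, 47.0 and 58.0 CPM with DFMO, against 15.3, 10.8 and 16.8 CPM with vehicle. Every DFMO library of a lineage lay above its vehicle libraries, and Th17n was higher (1.02 ± 0.13, adjusted p = 5.4e-09). The other member of the list, 86.1 kb from Smad3, which encodes a TGF-beta signal transducer, had ratios of 2.34 and 1.75. At that peak the iTreg groups overlapped. Of the 42 tested ribosomal protein peaks 3 were higher and 0 lower in Th17n, and 4 and 0 in iTreg cells. The Rpl23 member lay at a gene end, 5192 bp from the nearest start site at hand. It had 5.99 ± 3.21 CPM in Th17n with DFMO and 2.36 ± 1.35 CPM with vehicle, and 6.23 ± 2.45 CPM in iTreg with DFMO and 2.53 ± 0.703 CPM with vehicle (SD, n = 3), and its Th17n groups overlapped.

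Of lineage cytokine and factor genes, Rora, which encodes a Th17 factor, had 1 member among the 159 tested peaks of the Th17 list, of which 3 were higher and 22 lower in Th17n and 4 and 18 in iTreg cells. That peak (chromosome 9, 68957101 to 68957560) had 4.55, 6.49 and 6.51 CPM in Th17n with DFMO and 2.94, 2.62 and 3.82 CPM with vehicle. The iTreg libraries had 14.1, 9.96 and 9.09 CPM with DFMO and 5.63, 3.22 and 4.85 CPM with vehicle. It was thus at a Th17 gene and higher in iTreg (-0.78 ± 0.31, adjusted p = 0.032). The call was lost without the library of Th17n with DFMO of animal 1, Th17n with vehicle of animal 2, iTreg with DFMO of animal 1, or iTreg with vehicle of animal 1 or 3 (adjusted p = 0.054 to 0.106). It was also lost in DFMO libraries alone (-0.98, adjusted p = 0.0637), in vehicle libraries alone (-0.58, adjusted p = 0.321) and after thinning (-0.21, adjusted p = 0.727). A peak 33.8 kb from Ifng, the interferon gamma gene, had ratios of 2.76 and 1.97 and one high library, 14.3 CPM in Th17n with DFMO of animal 2. At the Ifng peak the iTreg groups overlapped. Of 77 tested Th1 peaks 1 was higher and 6 lower in Th17n, and 1 and 12 in iTreg cells. The members near Irf1, which encodes an interferon response factor, near Hk2, which encodes the glycolytic enzyme hexokinase 2, and near Eed, which encodes a Polycomb subunit, had ratios of 1.89 and 2.15, 2.01 and 1.86, and 1.78 and 1.79 in Th17n and iTreg cells. DFMO and vehicle libraries overlapped in both lineages at Hk2, in Th17n cells at Eed and in iTreg cells at Irf1. The calls on their lists were 1 higher and 2 lower in Th17n and 0 and 7 in iTreg cells of 40 interferon response peaks, 0 and 11 in Th17n and 4 and 11 in iTreg cells of 76 glycolysis and hypoxia peaks, and 5 and 6 in Th17n and 4 and 4 in iTreg cells of 100 peaks at chromatin modifiers.

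Members also lay at genes of other cell types. Inside Blnk, which encodes the B cell linker protein (chromosome 19, 40965072 to 40965741), accessibility was 18.5, 24.7 and 22.1 CPM in Th17n with DFMO, against 4.90, 9.39 and 7.93 CPM in Th17n with vehicle. Among iTreg libraries the values were 25.2, 37.96 and 41.0 CPM with DFMO, against 14.3, 13.3 and 25.5 CPM with vehicle. It was higher in iTreg (-0.99 ± 0.20, adjusted p = 4.2e-05), while the B cell list, with a peak at 3 of 7 genes, summed lower in iTreg. The part of B cells in this result was not tested. Inside Esr1, which encodes the oestrogen receptor alpha (chromosome 10, 4900172 to 4900706), it was 26.0, 20.8 and 22.1 CPM in Th17n with DFMO, against 11.8, 7.08 and 6.75 CPM with vehicle. The values in iTreg were 28.2, 17.6 and 32.8 CPM with DFMO, against 3.58, 1.505 and 2.43 CPM with vehicle. Its iTreg ratio of 10.5 was the largest of the 586. It was called higher in Th17n (0.71 ± 0.25, adjusted p = 0.014), but the difference was -0.26 in DFMO libraries and 1.67 in vehicle libraries, and the call was lost without the iTreg vehicle library of animal 2 (adjusted p = 0.0751).

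Peaks beside members were counted without other members, so peaks that opened in both lineages are left out by the rule. The 454 tested non-member peaks within 10 kb of a member had median log2 changes with DFMO of 0.074 in Th17n and 0.12 in iTreg cells, against 0.0017 and -0.019 over all non-members. Of them 33 were called higher (7.27%) and 16 lower in Th17n, and 22 higher (4.85%) and 9 lower in iTreg cells, against 3.86% and 3.13% of all non-members called higher. Another member lay within 10 kb of 39 members.

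The thresholds fell in a continuous range of values. Just inside the ratio of 0.6 lay the peaks near Arhgap12, Atp6v0a1 and Siah1a, with smaller ratios of 1.668, 1.668 and 1.670, and just outside lay those of 3110082I17Rik, Rdm1 and Sspo, with 1.666, 1.665 and 1.665. Just inside the level lay peaks near Zswim6 (5.02 CPM in Th17n with DFMO), Vps13d (5.04 CPM in iTreg with DFMO) and Btn2a2 (5.05 CPM in iTreg with DFMO). Just outside lay a peak near Raph1 (4.99 CPM in Th17n with DFMO) and one inside Mylk (4.97 CPM in iTreg with DFMO).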

How the data were processed

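The authors deposited 1 table of raw counts, whole numbers per peak and library, for 48443 peaks of build mm10. Per the submitters' processing notes, the tools were Trimmomatic, FastQC, the aligner Bowtie2 and the peak caller MACS2. Their versions and settings, the handling of duplicate and multiply mapped reads, any shift of reads for the transposase and the pooling of libraries for peak calling were not found in the labels. All count columns belonged to the 12 libraries (0 unused). Total counts were 1020937 to 6496550 per library. Whether peak starts count from 0 or 1 is not stated, and they are printed as deposited.

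CPM was computed from column totals with pandas 2.3.3, and the rule was applied to means of 3 libraries. Ratios use no pseudocount. The exception is the log2 ratios for the choice in 2 animals, where 1 CPM was added to each value. The members and gene lists were chosen with earlier results of these data known. The test on counts was edgeR's quasi-likelihood test (edgeR 4.0.16, R 4.3.3, with filterByExpr, TMM, glmQLFit and glmQLFTest) in 1 model of 4 group means, and DESeq2 1.42.0 was an alternative. A call needs a Benjamini-Hochberg adjusted p under 0.05 over 43726 peaks, and each p-value comes from 3 animals in a group. Pairing comes from the numbers 1 to 3 in the sample titles, each read here as 1 animal. With group means subtracted, the 18 pairs of libraries that share an animal correlated at -0.055 to 0.075. Tested on simulated data of 42134 peaks, the lineage test recovered 65.3% of peaks with a log2 difference of 1 and 96.6% of those with 2, and 8.64% of its calls were false. The simulation changed only 95 and 89 peaks of those sizes, picked at all levels, with noise from the fitted trend alone. In the data 13120 and 11216 peaks were called higher in Th17n and iTreg, so these shares need not hold for the members.

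Peaks were assigned to the nearest of 21900 protein-coding RefSeq gene models (GRCm38.p6) within 100 kb. That annotation gives no strand, so start sites come from its promoter table. Named members are the 12 with the largest smaller ratio, the 8 with the smallest lineage p in each direction, the 8 most open, up to 4 per gene list, genes with at least 3 members, those next to a threshold and up to 6 at small RNA genes. Alternatives changed the scaling, thresholds, depth, filter, block, tool and annotation, and left out each library in turn. No genome sequence was used here.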

Additional observations from a re-analysis of the deposited data

How the results depend on the processing

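The count of 586 members was 556 to 657 with 1 library left out, 628 with TMM-scaled totals (583 shared), 623 with medians (420 shared) and 662 with all libraries thinned to 1020937 counts (389 shared), so the count was steadier than the membership. It was 248 with a ratio threshold of 0.5 and 253 with a level of 10 CPM. The lineage calls were 81 to 98 higher in Th17n and 181 to 211 higher in iTreg with 1 library left out, and 94 and 199 with the replicate block, which changed no count by over 1.5 times. DFMO libraries alone gave 62 and 132, and thinning gave 127 higher in iTreg. The lowest share of chosen peaks that were higher in the animal left out (64.5%) was 50.5% after thinning and 72.4% with a ratio threshold of 0.5, alternatives chosen after seeing the data. The share at gene ends was 12.6% with a 2 kb window and 15.9% with all gene types, both wider definitions by construction. In DFMO libraries alone the lineage difference changed sign at Esr1 (-0.26, adjusted p = 0.506) and at the n-TItat14 peak near Zfp184 (0.19, adjusted p = 0.697), and the cause was not tested. Of 70 named members 42 had a lineage call, 14 of them lost it under at least 1 alternative, and 6 others gained one. Some named members were chosen for a small lineage p, so the count of 42 was partly set by that choice. Of all 586 members 16.2% were called higher in Th17n and 35.0% higher in iTreg, against 30% and 25.7% of all tested peaks. At 5 CPM the shallowest library held 5.11 counts, which limits single members most.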
